A study of Mus musculus with 3 samples.

Results

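The elastic fibre genes described here are Eln, Fbn1, Fbn2, Mfap5, Mfap4, Fbln5, Efemp2, Efemp1, Fbln1 and Fbln2. They were taken by gene symbol, 10 of the 32285 genes listed in the count matrices, and all 10 symbols were found. Their levels were measured by droplet single-cell RNA sequencing of cells from mouse femoral arteries. In fibroblast-like cells, Eln, Mfap4 and Fbn2 were higher 7 days after injury than after sham surgery, while Fbn1 and Efemp1 were lower. Eln was lower in endothelial-like and smooth muscle-like cells of the same D7 library. In the contractile cells of the smooth muscle-like class it was not lower, with a D7 over Sham ratio of 1.25 (1.08-1.44). Within the 3 fibroblast clusters that have at least 50 cells of both libraries, Mfap4 was again higher in D7, by less than in the whole class. In the cluster led by Pi16 and Sema3c its level was under 50 CPM. Eln was nearly level in these clusters. In those led by Rbp4 and Gdf10, Inmt and Penk, and Pi16 and Sema3c, the D7 over Sham ratio of Efemp1 was 2.41, 1.58 and 1.04. That of Fbn1 was 1.23, 0.877 and 1.07.

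The mice were WT males, 8 weeks old at surgery. Group Sham had a sham operation, and the labels do not give the time between that operation and harvest. In groups D2 and D7 the femoral artery was injured with a wire, a model that the submitters abbreviate FAI, and the vessels were taken 2 or 7 days later. Cells of 6 mice were pooled into 1 library per group, after DAPI staining and sorting of live single cells, and read with the Chromium 3′ v3 chemistry. The design has no replicate library: no test between groups was possible, and a difference between libraries cannot be told apart from a difference between surgeries, dissections or pools.

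Elastic fibres let a large artery stretch and recoil with each pulse. Smooth muscle cells, fibroblasts and endothelial cells secrete tropoelastin, the product of Eln, which is crosslinked by lysyl oxidases onto a scaffold of microfibrils built from fibrillins. Short fibulins and microfibril-associated proteins bring tropoelastin, the crosslinking enzymes and the microfibrils together. Most arterial elastin is laid down during development and early postnatal growth, and injured arteries form a neointima in which matrix genes are expressed again.

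After filtering, 7346 cells of Sham, 11034 of D2 and 10944 of D7 remained, with median depths of 4080, 6645 and 6764.5 UMIs (unique molecular identifiers, each counting 1 captured transcript). Pairs of libraries shared between 16 and 26 cell barcodes. Cells were clustered without the elastic fibre genes, and clusters were called fibroblast-like, smooth muscle-like or endothelial-like from fixed marker genes. Fibroblast-like cells numbered 3849 in Sham, 112 in D2 and 3142 in D7, endothelial-like cells 470, 90 and 390, and smooth muscle-like cells 151, 16 and 302. The median depth of fibroblast-like cells was 1833 UMIs in Sham, 8437 in D2 and 11943.5 in D7. All 12 fibroblast markers were detected in fibroblast-like cells, all 12 smooth muscle markers in smooth muscle-like cells and all 14 endothelial markers in endothelial-like cells of each library. With 16 smooth muscle-like cells, D2 was not compared in that class.

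Levels are UMIs of a gene summed over the cells of a class, divided by all UMIs of that class and given as CPM. Ranges in brackets are exact 95% intervals, Poisson for levels and conditional binomial for ratios. They cover counting error only, and understate the error of genes whose UMIs come largely from few cells. A gene was called apart where the ratio of (CPM + 1) reached 2 and the library with more of it had 50 CPM or more, from 20 UMIs or more. This is a rule of size and not a test. B-like cells, which should lack these genes, served as a measure of free RNA: no member exceeded 13.4 CPM in them, the value of Eln in D7.

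Promoters from RefSeq (build GRCm38.p6) were found for 6 members: Fbn1, Fbln1, Fbln2, Fbln5, Efemp1 and Efemp2. Those of Eln, Fbn2, Mfap4 and Mfap5 are not shown here. A set of 4 promoters is printed because these genes went in different directions between libraries: Fbn1 and Efemp1 were lower in fibroblast-like cells of D7, Efemp2 was higher in those of D2, and Fbln2 was high in smooth muscle-like cells of D7. Each runs from 250 bases before to 50 bases after an annotated start, read 5′ to 3′ on the gene's strand. Fbn1 is at chr2:125506389-125506688 (minus strand), Fbln2 at chr6:91212514-91212813 (plus), Efemp1 at chr11:28852955-28853254 (plus) and Efemp2 at chr19:5473696-5473995 (plus). Capitals mark matches, on either strand, to the letters GGGCGG (the Sp1 motif), CAGAC (Smad) or TGANTCA (AP-1).
Fbn1: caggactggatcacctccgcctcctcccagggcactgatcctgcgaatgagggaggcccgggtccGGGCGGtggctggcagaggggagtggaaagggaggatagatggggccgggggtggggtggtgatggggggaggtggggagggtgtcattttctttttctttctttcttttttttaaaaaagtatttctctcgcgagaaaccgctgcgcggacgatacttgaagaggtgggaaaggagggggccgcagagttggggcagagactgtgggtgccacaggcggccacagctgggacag
Fbln2: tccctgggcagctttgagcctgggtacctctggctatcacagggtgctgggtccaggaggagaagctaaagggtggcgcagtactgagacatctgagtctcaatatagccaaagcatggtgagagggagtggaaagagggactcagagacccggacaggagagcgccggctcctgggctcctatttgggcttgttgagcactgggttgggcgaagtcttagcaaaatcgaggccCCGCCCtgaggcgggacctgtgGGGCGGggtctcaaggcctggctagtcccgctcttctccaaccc
Efemp1: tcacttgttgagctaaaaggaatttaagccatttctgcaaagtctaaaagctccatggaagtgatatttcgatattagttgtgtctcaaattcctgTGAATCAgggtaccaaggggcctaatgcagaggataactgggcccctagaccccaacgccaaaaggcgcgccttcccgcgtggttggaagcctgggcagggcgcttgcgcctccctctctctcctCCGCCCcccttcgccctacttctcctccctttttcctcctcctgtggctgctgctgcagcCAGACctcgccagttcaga
Efemp2: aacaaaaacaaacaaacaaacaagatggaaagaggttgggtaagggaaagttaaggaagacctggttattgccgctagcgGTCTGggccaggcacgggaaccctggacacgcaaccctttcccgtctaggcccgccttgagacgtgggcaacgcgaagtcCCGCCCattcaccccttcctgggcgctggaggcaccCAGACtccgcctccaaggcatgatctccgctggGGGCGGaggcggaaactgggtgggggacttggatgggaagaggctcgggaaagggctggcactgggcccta

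The Fbn1 promoter held 1 Sp1 match and the Fbln2 promoter held 2. The Efemp1 promoter held 1 match each to Sp1, Smad and AP-1, and the Efemp2 promoter printed held 2 to Sp1 and 2 to Smad. RefSeq lists 3 starts of Efemp2, and the windows of the other two held 5 and 7 Sp1 matches and 0 Smad matches. None of the 4 windows held GGAATG (TEAD) or TATAAA (the TATA box). Of 32851 RefSeq promoters of the same length, 35.7% held GGGCGG, 49.6% CAGAC, 7.81% TGANTCA, 14.7% GGAATG and 13.6% TATAAA, on either strand. A match describes letters in the window and is not a binding site.

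The plot of levels by cell class shows the 10 members in the 3 classes and in B-like cells.

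**Figure D1:**
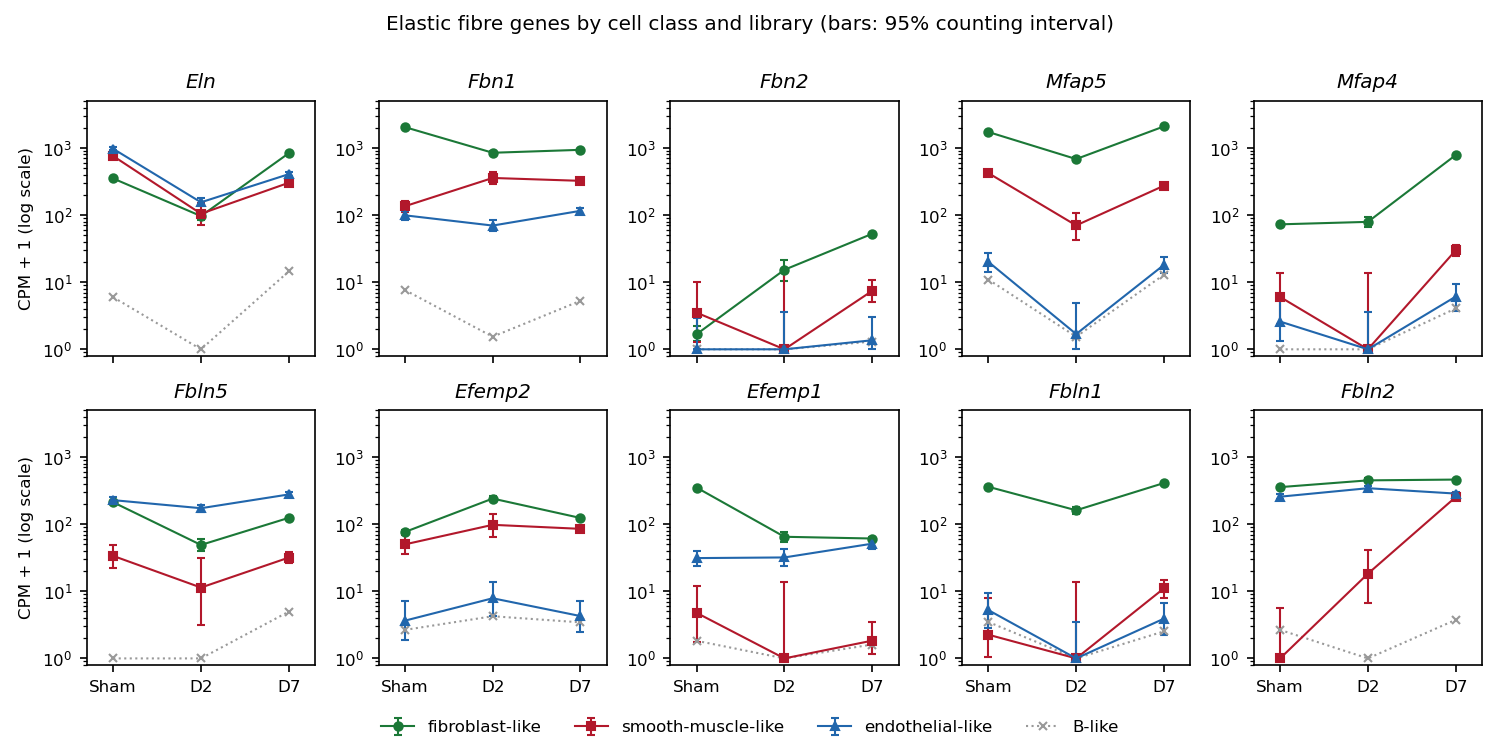
Level of each elastic fibre gene (CPM + 1, log axis) in Sham, D2 and D7, with 1 panel per gene, 1 line per cell class and exact 95% Poisson intervals as bars. Mfap4 in fibroblast-like cells reached 781 CPM in D7, and Fbln2 in smooth muscle-like cells reached 252 CPM in D7 after 0 CPM in Sham; B-like cells stayed at or below 13.4 CPM.

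Eln (chr5:134702593-134747323, minus strand, GRCm38) encodes tropoelastin, the core of the fibre. In fibroblast-like cells it was at 349.6 CPM in Sham (341-359), 95.5 CPM in D2 (82.3-110.2) and 832 CPM in D7 (823-841.5). The D7 level was 2.38-fold that of Sham (2.31-2.45), and the D2 level was 3.66-fold lower than that of Sham (3.16-4.26). In endothelial-like cells Eln was at 969 CPM in Sham, 154 CPM in D2 and 405 CPM in D7. Here D7 was 2.39-fold lower than Sham (2.22-2.58) and D2 6.30-fold lower (5.48-7.27). Smooth muscle-like cells had 756 CPM in Sham (697-819), 104 CPM from 30 UMIs in D2 and 301 CPM in D7 (284-319.9), and D7 was 2.51-fold lower than Sham (2.27-2.77). Eln was thus lowest in D2 in each of the 3 classes, with 16 cells behind the smooth muscle value, and D7 stood above Sham in fibroblast-like cells but below it in the other classes.

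The order of the classes also differed between libraries. In Sham, Eln was 2.16-fold higher in smooth muscle-like than in fibroblast-like cells (1.98-2.35) and 2.77-fold higher in endothelial-like than in fibroblast-like cells (2.63-2.92). In D7 it was 2.76-fold lower in smooth muscle-like than in fibroblast-like cells and 2.05-fold lower in endothelial-like than in fibroblast-like cells. Fibroblast-like cells held 65.0% of the Eln UMIs of the Sham library, 31.7% in D2 and 90.7% in D7, while they made up 52.4%, 1.02% and 28.7% of the cells. Shares of UMIs move with the number of cells as well as with the level per cell.

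Fbn1 (chr2:125300594-125507993, minus strand) encodes fibrillin-1, the main structural protein of microfibrils. Its level in fibroblast-like cells was 2040.3 CPM in Sham, 846 CPM in D2 and 936 CPM in D7. D7 was 2.18-fold lower than Sham (2.15-2.21) and D2 2.41-fold lower (2.30-2.54), and both injured libraries lay near each other, with a D7 over D2 ratio of 1.11. In smooth muscle-like cells the direction was the opposite, with 134 CPM in Sham, 356 CPM in D2 and 322 CPM in D7, a D7 over Sham ratio of 2.40 (1.97-2.95). In the contractile cells among them Fbn1 was not apart, at 143 CPM in D7 and 114 CPM in Sham (ratio 1.26, 0.838-1.88), and 53.8% of the Fbn1 UMIs of D7 lay in a dividing sub-cluster rich in fibroblast markers, described with Fbln2. Endothelial-like cells had 98.1 CPM in Sham, 68.7 CPM in D2 and 115 CPM in D7, and neither injured library was apart from Sham.

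Fbn2, on chromosome 18, encodes fibrillin-2, which is best known from developing tissue. It was nearly absent from fibroblast-like cells of Sham, at 0.681 CPM from 11 UMIs. It reached 14.3 CPM from 28 UMIs in D2 and 51.6 CPM from 1992 UMIs in D7, 75.7-fold the Sham level (42.2-152). The UMIs were unevenly spread: the tenth of D7 fibroblast-like cells with the most Fbn2 held 85.8% of them. In smooth muscle-like and endothelial-like cells Fbn2 stayed at or below 6.43 CPM in the 3 libraries.

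Mfap5 (chr6:122505845-122529290, plus strand) encodes a microfibril-associated glycoprotein that binds fibrillins. In fibroblast-like cells it was at 1725 CPM in Sham, 681 CPM in D2 and 2090.4 CPM in D7, so D2 was 2.53-fold lower than Sham (2.40-2.68) and D7 lay 1.21-fold above Sham. Smooth muscle-like cells had 421 CPM in Sham, 69.1 CPM in D2 and 273 CPM in D7. Endothelial-like cells had at most 19.1 CPM, while Eln and Fbln5 were detected there at the levels given for them.

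Mfap4 (chr11:61485431-61488900, plus strand) encodes a microfibril-associated protein that binds tropoelastin and fibrillins. It stood at 71.7 CPM in Sham, 78.2 CPM in D2 and 781 CPM in D7 in fibroblast-like cells. D2 and Sham did not differ beyond counting error, with a ratio of 1.09 (0.915-1.29), while D7 was 10.9-fold above Sham (10.3-11.6) and 9.99-fold above D2 (8.53-11.8). In smooth muscle-like cells it was at 28.8 CPM in D7 and 5.02 CPM in Sham, under the minimum level, and it did not exceed 5.09 CPM in endothelial-like cells.

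The short fibulins Fbln5, Efemp2 and Efemp1 encode fibulin-5, fibulin-4 and fibulin-3. In mice, fibulin-4 and fibulin-5 are needed for normal elastic fibre assembly. Fbln5 (chr12:101746565-101819055, minus strand) in fibroblast-like cells was at 211 CPM in Sham, 48.0 CPM in D2 and 123 CPM in D7. D2 was 4.39-fold lower than Sham (3.58-5.45), and D7 was 1.71-fold lower than Sham, which is short of the 2-fold rule. In endothelial-like cells Fbln5 was at 227 CPM in Sham, 172 CPM in D2 and 276 CPM in D7, with no pair apart. It did not differ beyond counting error between endothelial-like and fibroblast-like cells of Sham (ratio 1.08, 0.970-1.19) and 2.24-fold higher in endothelial-like than in fibroblast-like cells of D7 (2.07-2.42).

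Efemp2 (chr19:5473954-5482517, plus strand) was the single member past 2-fold higher in D2 than in Sham in fibroblast-like cells among those that passed the minimum. It was at 75.4 CPM in Sham, 239.6 CPM in D2 and 123 CPM in D7, and the D2 over Sham ratio was 3.18 (2.85-3.54). The D7 level lay between, 1.63-fold that of Sham (1.53-1.73). In smooth muscle-like cells Efemp2 was at 49.0 CPM in Sham, 96.7 CPM in D2 and 84.2 CPM in D7, and in endothelial-like cells it did not exceed 6.87 CPM.

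Efemp1 (chr11:28853204-28926743, plus strand) was lower in fibroblast-like cells of both injured libraries, at 349 CPM in Sham, 63.9 CPM in D2 and 60.1 CPM in D7. D2 was 5.47-fold lower than Sham (4.58-6.59) and D7 5.81-fold lower (5.54-6.10), and D7 and D2 did not differ beyond counting error. Endothelial-like cells had 30.2 CPM in Sham, 30.9 CPM in D2 and 50.2 CPM in D7. Smooth muscle-like cells had at most 3.77 CPM, from 3 UMIs in Sham.

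Fbln1 (chr15:85205949-85286535, plus strand) and Fbln2 (chr6:91212455-91272540, plus strand) encode the longer fibulins, which bind fibronectin, fibrillin and elastin and are found in vessel walls and basement membranes. Fbln1 in fibroblast-like cells was at 359 CPM in Sham, 159.9 CPM in D2 and 409 CPM in D7, so D2 was 2.25-fold lower than Sham (2.00-2.53) and D7 lay close to Sham. Fbln2 was nearly level in fibroblast-like cells, at 355 CPM in Sham, 448 CPM in D2 and 460.4 CPM in D7. It was also nearly level in endothelial-like cells, at 256 CPM in Sham, 342 CPM in D2 and 284 CPM in D7. Fbln1 did not exceed 10.1 CPM in smooth muscle-like or endothelial-like cells.

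Smooth muscle-like cells differed most in Fbln2. No UMI was found in 151 cells of Sham, 5 UMIs (17.3 CPM) in 16 cells of D2, and 901 UMIs (252 CPM) in 302 cells of D7. Against a floor of 3 counts over the class in Sham, D7 was at least 66.9-fold higher. The tenth of D7 cells with the most Fbln2 held 82.8% of these UMIs. With each cell thinned to 1000 UMIs, 7.32% of 287 D7 cells had a Fbln2 UMI (4.59-11.0), against 0 of 132 in Sham. A floor of 3 cells in place of 0 would put the Sham share at 2.27%, which is not an exact interval. The unthinned D7 share was 22.8%. B-like cells of D7 had a thinned share of 0.633% and a median depth of 3534 UMIs, against 8401 UMIs in smooth muscle-like cells of D7.

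Fibroblast markers were also higher in smooth muscle-like cells of D7: the 12 markers summed to 10822 CPM in D7, 7234 CPM in D2 and 4792 CPM in Sham, and the smooth muscle markers to 13749 CPM in D7, 10253 CPM in D2 and 33548 CPM in Sham. Of the fibroblast markers, Pdgfra, Lum, Pi16 and Clec3b were at 0 in D2. In D7 the level in smooth muscle-like over fibroblast-like cells was 0.686 for Efemp2, 0.547 for Fbln2, 0.362 for Eln and 0.345 for Fbn1. It lay between 0.125 and 0.345 for Fbn2, Mfap5 and Fbln5, and it was at or below 0.0369 for Mfap4, Fbln1 and Efemp1. The part of fibroblast transcripts in the Fbln2 level was not tested.

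Counted together, 7 of 9 members that passed the minimum were apart between D2 and Sham in fibroblast-like cells, 1 higher in D2 and 6 lower. Over all genes tested in that comparison 13.9% were higher and 15.1% lower by the same rule. The median log2 ratio was -1.27 over those 9 members and 0.07 over all genes tested. Between D7 and Sham, 3 of 10 members were higher in D7 and 2 lower, beside 7.53% and 10.3% of all genes, and the medians were 0.33 and -0.05. Between D7 and D2, 6 of 10 members were higher in D7 and 0 lower, beside 6.61% and 6.1% of all genes, and the medians were 1.34 and -0.11. Fbn2 was under the minimum between D2 and Sham, and in both comparisons with D7 it passed through D7 alone, at 51.6 CPM. Fbln5, at 48.0 CPM in D2, passed through the other library alone in both comparisons with D2. The calls of such members rest on the library where they are high. These 3 comparisons share libraries, so they are not independent. With the mean over cells of each cell's CPM in place of summed UMIs, Eln (log2 0.80) and Fbn1 (log2 -0.34) were no longer apart between D7 and Sham, nor were Fbn1, Mfap5 and Fbln1 between D2 and Sham, and Fbn2 was then under the minimum.

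In endothelial-like cells, Eln alone among the 4 or 5 members that passed the minimum was apart. It was 1 of 4 lower in D2 than in Sham, where 10.3% of all genes were higher and 10.6% lower. It was 1 of 5 lower in D7 than in Sham, where 5.79% were higher and 6.52% lower, and 1 of 5 higher in D7 than in D2, where 2.23% were higher and 1.04% lower. In smooth muscle-like cells, 2 of 5 members were higher in D7 than in Sham (Fbn1 and Fbln2) and 1 lower (Eln), beside 10.4% and 8.22% of all genes. By the mean over cells, Eln in D7 over Sham was at log2 -0.50 in endothelial-like and -0.79 in smooth muscle-like cells, neither past 2-fold. Members that passed the minimum in these classes include some that passed through 1 library alone, as Fbln2 did in smooth muscle-like cells.

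Fibroblast-like cells of the libraries came from different clusters. In Sham, 54.8% were in a cluster led by Rbp4 and Gdf10, 26.6% in one led by Inmt and Penk, and 18.2% in one led by Pi16 and Sema3c. In D7, 86.7% were in a cluster led by Cthrc1 and Aspn, which held 70.5% of D2 and 15 cells of Sham. That cluster held 97.9% of the Eln UMIs and 99.0% of the Mfap4 UMIs of D7 fibroblast-like cells. Cells of the Rbp4 and Gdf10 cluster had few UMIs, 968.5 in D7 and 869 in Sham at the median. The D2 and Sham levels given above therefore compare largely different clusters as well.

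Within the 3 clusters that hold at least 50 cells of both libraries, Eln was nearly level. It was at 612 CPM in D7 and 544 CPM in Sham in the Rbp4 and Gdf10 cluster, 575 and 531 CPM in the Inmt and Penk cluster, and 107 and 127 CPM in the Pi16 and Sema3c cluster. The D7 over Sham ratio was 1.13 and 1.08 in the first pair of clusters, and D7 was 1.18-fold lower than Sham in the last. In the Cthrc1 and Aspn cluster Eln was at 459 CPM in 15 cells of Sham, 89.6 CPM in 79 cells of D2 and 876 CPM in 2725 cells of D7.

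Fbn1 and Efemp1 were nearly level in the Pi16 and Sema3c cluster. Fbn1 there was at 3592 CPM in D7 and 3361 CPM in Sham, and Efemp1 at 649 CPM in D7 and 624 CPM in Sham. This cluster held 80.8% of the Efemp1 UMIs of Sham and 52.4% of those of D7, and it held 74.5% of the Fbn1 UMIs of Sham. In the Rbp4 and Gdf10 cluster Efemp1 was 2.41-fold higher in D7 than in Sham (1.55-3.64), the opposite of the whole class. In the Cthrc1 and Aspn cluster, Efemp1 was at 244 CPM in Sham, 65.3 CPM in D2 and 26.6 CPM in D7, and Fbn1 at 1555 CPM in Sham, 861 CPM in D2 and 799 CPM in D7.

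Mfap4, Fbn2 and Efemp2 differed within clusters too. Mfap4 was 2.04-fold higher in D7 than in Sham in the Rbp4 and Gdf10 cluster (1.64-2.52), 2.86-fold in the Inmt and Penk cluster (2.37-3.44) and 6.02-fold in the Pi16 and Sema3c cluster (3.81-9.63). In the Pi16 and Sema3c cluster Mfap4 was at 27.2 CPM in D7 and 4.52 CPM in Sham, under the minimum level. Summed over fibroblast-like cells outside the Cthrc1 and Aspn cluster, its log2 ratio was 0.70, short of 2-fold, against 3.43 in the whole class. In the Pi16 and Sema3c cluster Fbn2 was at 70.4 CPM from 132 UMIs in D7 and 0.274 CPM from 2 UMIs in Sham, a ratio of 257 (69.8-2145). Efemp2 was 2.05-fold higher in D7 than in Sham in the Rbp4 and Gdf10 cluster (1.44-2.84) and 2.15-fold in the Pi16 and Sema3c cluster (1.87-2.47), with 1.31 in the Inmt and Penk cluster (0.947-1.78).

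**Figure D2:**
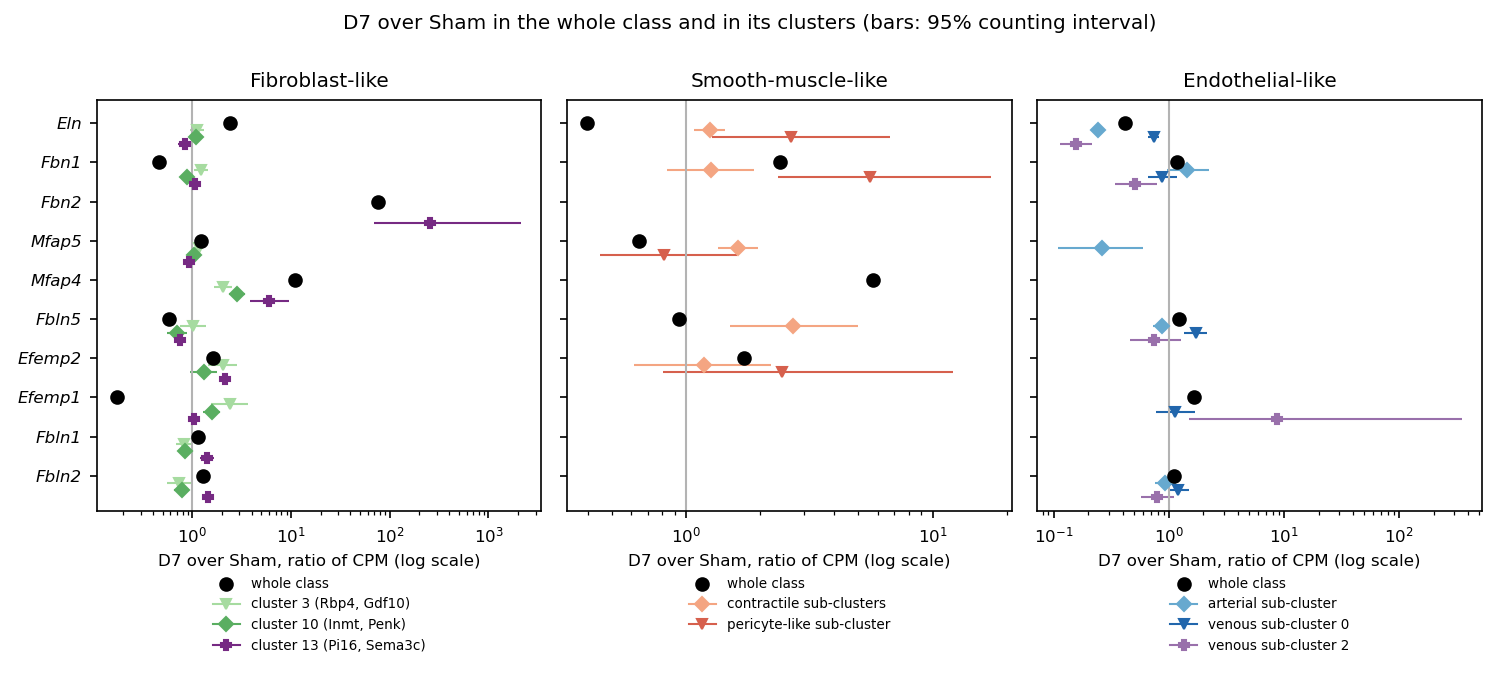
Ratio of D7 over Sham (log axis) for each member in the whole class (black) and in clusters or sub-clusters, with 1 panel per cell class and exact 95% intervals as bars on the cluster points; genes with few UMIs in a cluster are not drawn. Eln in fibroblast-like cells was at 2.38 in the whole class and at 1.13 and 1.08 in the Rbp4 and Gdf10 and the Inmt and Penk clusters, while Mfap4 was above 2 in each of the 3 clusters.

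Smooth muscle-like cells were clustered again on their own. Contractile sub-clusters held 57 cells of D7 and 121 of Sham, and a pericyte-like sub-cluster held 137 of D7 and 19 of Sham. In contractile cells Eln was at 1089.8 CPM in D7 and 874 CPM in Sham, a ratio of 1.25 (1.08-1.44), so the lower class-wide level of D7 was not seen in their sum. The 3 contractile sub-clusters differed: Eln was at 1468 CPM in D7 and 937 CPM in Sham in one led by Pcdh9, 517 CPM in D7 and 460.2 CPM in Sham in one led by H2-M9, and 504 CPM in 10 cells of D7 and 1050.0 CPM in 15 cells of Sham in one led by Hpse2. Mfap5 was at 699.9 CPM in D7 and 429.8 CPM in Sham, a ratio of 1.63 (1.35-1.97), and Fbln5 at 99.98 CPM in D7 and 36.7 CPM in Sham, a ratio of 2.72 (1.51-5.01) from 30 and 21 UMIs. The Pcdh9 sub-cluster held 28 of the 30 Fbln5 UMIs of D7. In it the 12 fibroblast markers summed to 12110 CPM in D7 and 5774 CPM in Sham, with Pdgfra at 0 CPM in D7, and the 14 endothelial markers to 1094 CPM in D7 and 196 CPM in Sham. Their part in the contractile levels of Fbln5, Mfap5 and Eln was not tested. In pericyte-like cells Eln was at 203 CPM in D7 and 75.8 CPM in Sham, the Sham value from 7 UMIs in 19 cells. Fbn1 there was at 302 CPM in D7 and 54.1 CPM in Sham, the Sham value from 5 UMIs.

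Most Fbln2 of D7 smooth muscle-like cells lay in a sub-cluster led by cell division genes, with 45 D7 cells and 79.6% of the UMIs of the class, at 488 CPM. A sub-cluster with Aldh1a3 and Uchl1 among its leading genes, with 39 D7 cells, was at 493 CPM and held 13.1%, and contractile cells of D7 had 26.7 CPM from 8 UMIs. The dividing cells were deep, with a median of 28692 UMIs, and had 6564 CPM of Acta2 (smooth muscle actin), 10.2 CPM of Pdgfra, 258 CPM of Lum, 705 CPM of Dcn and 5600 CPM of Col1a1. Their 12 fibroblast markers summed to 15555 CPM and their 12 smooth muscle markers to 12702 CPM, so the fibroblast sum was the higher. The cells with Aldh1a3 and Uchl1 had 8394 CPM of Acta2, no Pdgfra UMI and 4519 CPM of the fibroblast markers. Fibroblast-like cells of D7 had 142 CPM of Pdgfra, 6998 CPM of Dcn and 19631 CPM of Col1a1. The part of fibroblast transcripts in these sub-clusters was not tested.

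**Figure D3:**
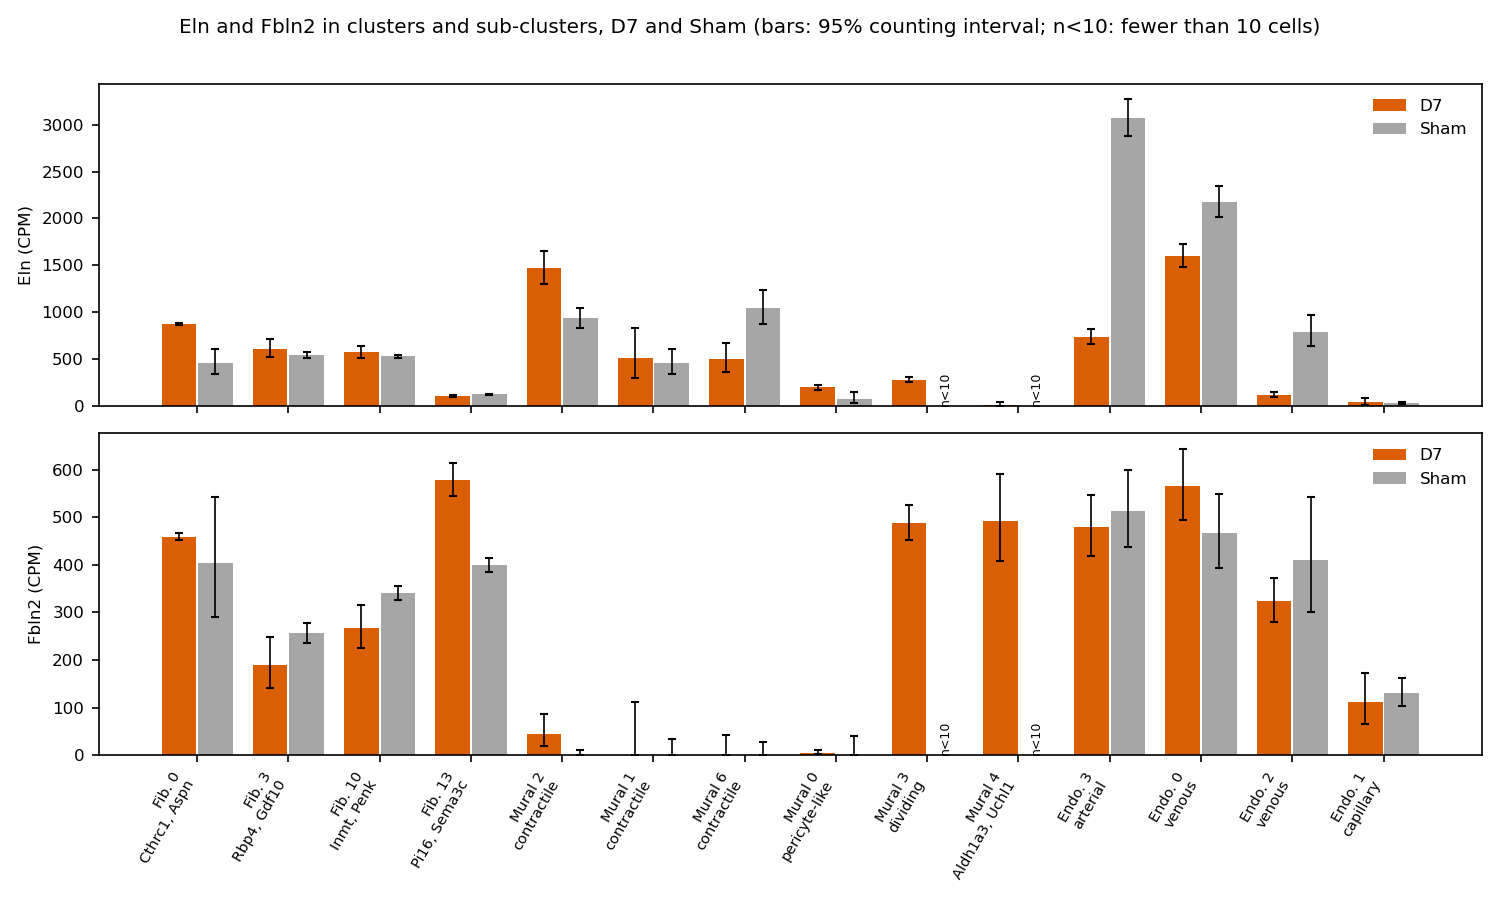
Level of Eln and Fbln2 (CPM, bars from 0, exact 95% Poisson intervals) in D7 and Sham in the fibroblast clusters and in the smooth muscle (mural) and endothelial sub-clusters described; values from fewer than 10 cells are not drawn. Arterial endothelial cells had 738 CPM of Eln in D7 and 3069 CPM in Sham, and the dividing sub-cluster of D7 smooth muscle-like cells had 488 CPM of Fbln2.

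Endothelial-like cells varied widely by vessel type. In arterial cells (48 of D7, 74 of Sham) Eln was at 738 CPM in D7 and 3069 CPM in Sham, 4.16-fold lower in D7 (3.67-4.72). In the venous sub-cluster with Vwf (120 of D7, 95 of Sham), Eln was at 1602 CPM in D7 and 2175 CPM in Sham, 1.36-fold lower in D7 (1.22-1.52). In the venous sub-cluster with Sele and Selp (87 of D7, 29 of Sham), it was at 124 CPM in D7 and 793 CPM in Sham, 6.42-fold lower in D7 (4.68-8.82). The Sham value there came from 93 UMIs. Capillary cells had 40.9 CPM in D7 and 31.7 CPM in Sham. Eln was therefore lower in D7 within each of the 3 sub-clusters with high levels. It was short of 2-fold in the one with Vwf, the only one of these with at least 50 cells of both libraries. Fbln5 was not lower in D7 beyond counting error in any of these 3 sub-clusters. Arterial cells had 718 CPM in D7 and 831 CPM in Sham, a ratio of 0.865 (0.733-1.02). Cells with Sele and Selp had 134 CPM in D7 and 179 CPM in Sham, a ratio of 0.746 (0.457-1.27). Cells with Vwf had 633 CPM in D7 and 370.1 CPM in Sham, a ratio of 1.71 (1.37-2.15). The 9 neutrophil markers summed to 40.3 CPM in Sham, 1078 CPM in D2 and 427 CPM in D7 in endothelial-like cells. With sub-clusters led by myeloid genes left out, all 24 calls of members apart remained, those of Eln among them. The part of neutrophil transcripts in the other sub-clusters was not tested. Endothelial-like cells of D2 and Sham also differed in make-up. Arterial cells, with 52.7% of the Eln UMIs of the class in Sham, were 5.56% of its cells in D2 and 15.7% in Sham. Capillary cells, with 1.04% of those UMIs, were 7.78% in D2 and 37.4% in Sham. A sub-cluster led by cell division genes held 34.4% in D2 and 1.70% in Sham. The part of make-up in the Eln level of D2 was not tested.

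The share of cells with a UMI, at 1000 UMIs per cell, follows the same classes. Among fibroblast-like cells, Eln was found in 25.8% in Sham, 16.3% in D2 and 33.0% in D7. Unthinned shares were 45.5%, 50.9% and 71.1%, and thinning used 2555, 104 and 2995 cells. Of the 2108 Sham cells in the Rbp4 and Gdf10 cluster, 818 were deep enough to be thinned. The thinned Sham cells thus hold a smaller part of that cluster than the class does. Mfap4 was found in 7.98% in Sham, 10.6% in D2 and 44.8% in D7 of the thinned cells, unthinned in 13.1%, 39.3% and 78.0%. Efemp1 was found in 15.9%, 3.85% and 5.04%, unthinned in 27.6%, 21.4% and 17.7%. In B-like cells, with median depths of 4117, 4573 and 3534 UMIs, no member exceeded a thinned share of 1.27%. Thinned fibroblast-like cells had a mean of 2.57 members per cell in Sham, 2.03 in D2 and 3.02 in D7, and 63.5% of D7 cells had at least 3 members, against 50.3% in Sham.

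**Figure D4:**
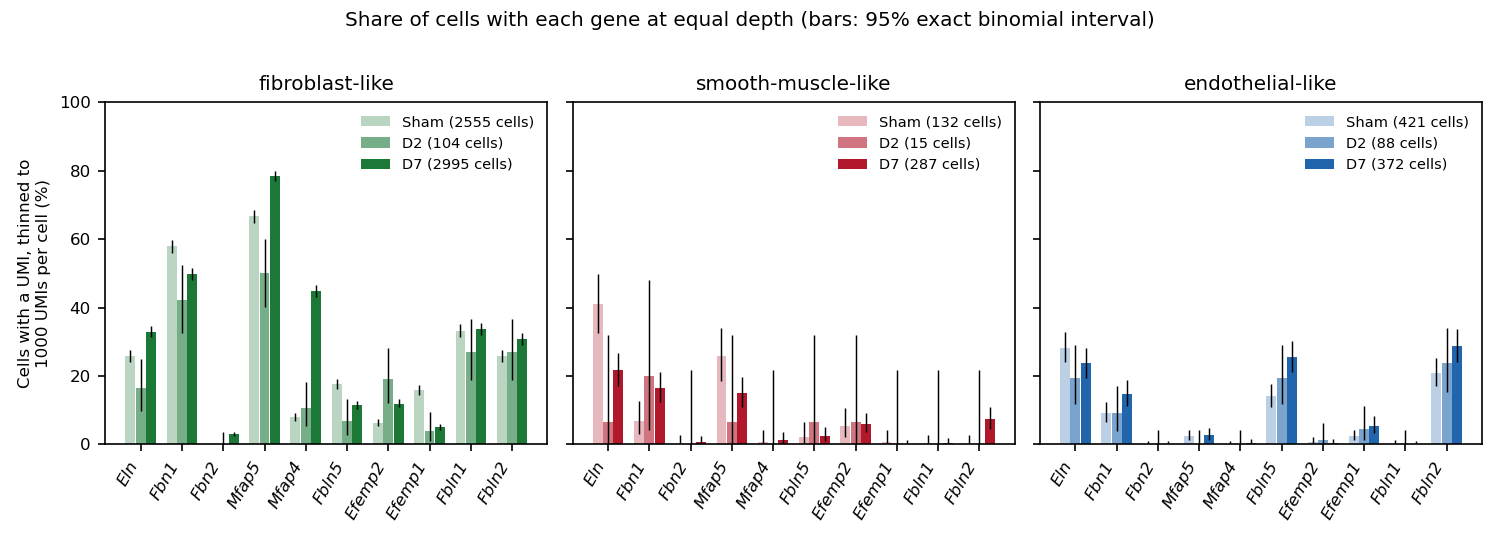
Percentage of cells with at least 1 UMI of each member after thinning to 1000 UMIs per cell, in Sham, D2 and D7, with exact 95% binomial intervals as bars. Mfap4 in fibroblast-like cells was found in 44.8% of D7 cells and in 7.98% of Sham cells, and Eln in smooth muscle-like cells in 21.6% of D7 cells and 40.9% of Sham cells.

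The 53 further genes that build, crosslink or break down elastic fibres were counted by the same rule. In fibroblast-like cells, 7 of the 25 that passed the minimum were higher in D2 than in Sham and 10 lower, 11 of 25 were higher in D7 than in Sham and 3 lower, and 11 of 24 were higher in D7 than in D2 and 4 lower. In smooth muscle-like cells 10 of 25 were higher in D7 than in Sham and 5 lower. In endothelial-like cells 4 of 15 were higher and 6 lower in D2 than in Sham, 4 of 16 were higher and 3 lower in D7 than in Sham, and 2 of 16 were higher and 1 lower in D7 than in D2. These counts stand beside the shares of all genes given above.

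Ltbp2, which encodes a microfibril protein that binds fibrillin, was near 0 in fibroblast-like cells of Sham and much higher after injury: 92.9-fold in D2 over Sham (54.8-170) and 59.4-fold in D7 over Sham (35.9-106). Timp1, an inhibitor of matrix metalloproteinases, was 22.1-fold higher in D2 than in Sham and 7.24-fold higher in D7 than in Sham. Lox, the lysyl oxidase that crosslinks tropoelastin, was at 625 CPM in D2 and 94.6 CPM in Sham, 6.61-fold higher in D2 (6.12-7.13). Mfap2, a microfibril glycoprotein, was at 403 CPM in D7 and 71.5 CPM in Sham, 5.63-fold higher in D7 (5.30-5.98), and 9.16-fold higher in D7 than in D2. Timp3, a matrix-bound inhibitor, was 6.16-fold lower in D2 than in Sham, and Adamts6, a secreted protease, was 6.19-fold higher in D7 than in Sham. Between D7 and D2, Ltbp4 was 3.65-fold, Ctsk 3.50-fold and Timp2 3.39-fold higher in D7.

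In smooth muscle-like cells the 4 lysyl oxidases that passed the minimum were each higher in D7 than in Sham, Lox 4.11-fold, Loxl1 3.87-fold, Loxl2 2.02-fold and Loxl3 5.34-fold. Over all genes tested there, 10.4% were higher in D7 by the same rule. These levels are sums over the whole class, in which contractile cells numbered 57 of 302 in D7 and 121 of 151 in Sham. Lysyl oxidase levels in contractile cells alone are not given here. Timp1 was 812-fold higher in D7, with a wide interval (146-32097) because Sham had 1 UMI, and Ltbp2 was at least 15.7-fold higher. Hmcn2 was 8.98-fold and Thsd4 8.08-fold lower in D7. In endothelial-like cells Timp4 was 57.7-fold lower in D2 than in Sham and 24.5-fold lower in D7 than in Sham. Mmp9 was at least 40.2-fold higher in D2 than in Sham, Timp1 16.5-fold higher, Mmp14 14.4-fold higher in D7 than in Sham, and Lox 14.8-fold lower in D2 than in Sham. Cst3 was 4.45-fold lower and Mmp2 3.75-fold higher in D7 than in Sham. Mmp9 was 6.51-fold lower in D7 than in D2, with Ctss 2.65-fold, Serping1 2.28-fold and Mmp2 1.85-fold higher in D7 than in D2. The 9 neutrophil markers summed to 40.3 CPM in Sham, 1078 CPM in D2 and 427 CPM in D7 in these endothelial-like cells. The part of neutrophil transcripts in the Mmp9 level was not tested.

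**Figure D5:**
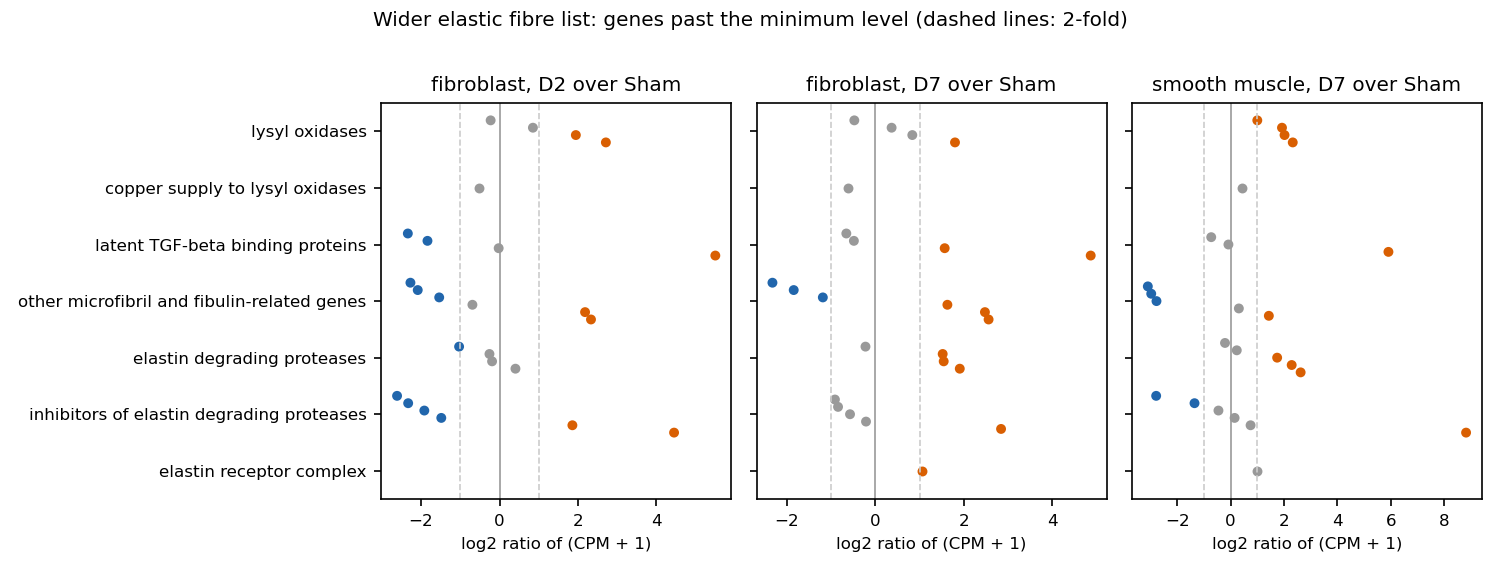
Log2 ratio of (CPM + 1) of the further genes that passed the minimum, by role, with 1 panel each for D2 over Sham and D7 over Sham in fibroblast-like cells and D7 over Sham in smooth muscle-like cells; points are genes, coloured where apart (orange higher, blue lower), and dashed lines mark 2-fold. Lysyl oxidases that passed the minimum lie above 0 in smooth muscle-like cells taken as a whole class, from Loxl2 (2.02-fold) to Loxl3 (5.34-fold) in D7 over Sham.

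For each member, the genes with the most similar pattern over 27 sums of a cell class in a library were sought among 5467 genes by Pearson correlation of log2(CPM + 10). Eln was most like Ccdc3 (r = 0.967), Fbn1 like Bmp1 (0.985), Fbn2 like Tnn (0.946), Mfap5 like Col6a1 (0.978) and Mfap4 like Clec11a (0.976). Fbln5 was most like Ltbp4 (0.980), Efemp2 like Tmem45a (0.967), Efemp1 like Dkk2 (0.951), Fbln1 like Cpxm1 (0.979) and Fbln2 like Ppic (0.923). The 27 sums share 3 libraries and their depths, so these values describe likeness of level alone.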

How the data were processed

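Droplet single-cell libraries of femoral artery cells were compared, 1 per group, each pooled from 6 mice. The deposited matrices hold raw UMI counts per gene and cell, with 39756684 (Sham), 98260210 (D2) and 100571340 (D7) counts; the authors aligned reads with Cell Ranger, version 7.1.0 per the file headers and 7.2.0 per the submitters' processing notes, which also name mm10 and Seurat 5.0.1. A cell was kept if it had 300 genes and 500 UMIs or more and no more than 15% of its UMIs from mitochondrial genes. Doublets were called per library by Scrublet (expected rate 8%) at a score of 0.3, set after seeing the data because the automatic threshold called none in Sham; 105 cells of Sham, 439 of D2 and 267 of D7 were removed.

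Libraries were clustered together (scanpy 1.11.5, Leiden resolution 1, 2000 variable genes, 30 components, 15 neighbours), with mural and endothelial cells clustered again at 0.5. The 10 members and the 53 further genes were left out of the variable genes and markers. Of 32 clusters, 29 were named from 168 markers of 18 classes and 3 stayed unnamed; the naming thresholds (3 markers in 10% of cells, a relative score of 0.3, or 0.6 without a leading marker) were set after seeing the data. All 10 members are described. Up to 4 further genes per comparison are named by a fixed rule, as those with the largest ratio past the minimum. The genes most like each member are also named by a fixed rule. Exceptions are the lysyl oxidases of smooth muscle-like cells and the sub-clusters, which were chosen after their values were seen. The promoters printed were also chosen after the levels of their genes were seen, while the plan was to print those of members that move together. The members and lists were chosen with earlier results of these data known. Free RNA was not subtracted. The rule for calling genes apart was tested on simulated sums with counting error alone and changes larger than 2-fold. That simulation does not cover spread between cells, shifts in cluster make-up or differences between libraries.

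Gene positions are from GENCODE M21 and promoters from RefSeq, both on GRCm38. Python 3.11.15, NumPy 2.4.6, SciPy 1.17.1, pandas 2.3.3, scikit-learn 1.9.0, leidenalg 0.10.2, python-igraph 0.11.9 and matplotlib 3.10.9 were used. Alternatives in filter, doublets, resolution, variable genes, scale, minimum and fold were tried. No paired analysis was possible because each group is 1 library.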

Additional observations from a re-analysis of the deposited data

Results flagged for a closer look

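Eln and Fbn1 differed between D7 and Sham in opposite directions in different cell classes. On the log2 scale, Eln in D7 over Sham was 1.25 in fibroblast-like cells, -1.26 in endothelial-like cells and -1.32 in smooth muscle-like cells. Fbn1 was -1.12 in fibroblast-like cells and 1.26 in smooth muscle-like cells. The differences between classes were not tested, since each group is 1 library. In contractile cells alone Eln was 0.32 and Fbn1 0.33, neither past 2-fold, and the clusters that hold most fibroblast-like cells differ between the libraries.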

How the results depend on the processing

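Each comparison was repeated with 1 choice altered at a time, and the counts below are of members apart. Shares of all genes called under each altered choice are not given here, so the counts cannot be set beside a general rate. Clustering each library on its own gave 2 for endothelial D7 over Sham and 2 for endothelial D7 over D2, against 1 each. A fold of 1.5 gave 2 for endothelial D7 over Sham, 4 for endothelial D7 over D2 and 5 for smooth muscle D7 over Sham (3 at 2-fold). No minimum level gave 2 for endothelial D2 over Sham, 2 for endothelial D7 over D2 and 6 for smooth muscle D7 over Sham. The mean over cells of each cell's CPM gave 4 for fibroblast D2 over Sham (7 otherwise), 2 for fibroblast D7 over Sham (5), 3 for fibroblast D7 over D2 (6) and 0 for endothelial D7 over D2 (1), and 12 of 24 single calls remained. Leaving out clusters much shallower than their library gave 5 for fibroblast D2 over Sham and 4 for fibroblast D7 over Sham, with Eln at 0.72 and Fbn1 at -0.48 (log2) in D7 over Sham, no longer apart; as planned, it also dropped the Pi16 and Sema3c cluster, for 1 D2 cell of low depth. The same rule judged on at least 10 cells, added after these values were seen, kept that cluster and gave 7 and 5. The following were also chosen after seeing the data. Contractile sub-clusters alone gave 1 for smooth muscle D7 over Sham, which was Fbln5 and not among the 3 of the whole class: Eln was at 0.32 (log2) against -1.32, Fbn1 at 0.33 against 1.26, and Fbln2 was under the minimum. Leaving out the cluster led by Cthrc1 and Aspn gave 2 for fibroblast D7 over Sham, with Eln at -0.48 against 1.25, Fbn1 at 0.44 against -1.12 and Efemp1 at 0.55 against -2.52; Mfap4, at 0.70 against 3.43, was no longer apart, and of the 5 only Fbn2 remained. Under the other alternatives 23 or 24 of 24 single calls remained (3 of 3 without the pericyte-like sub-cluster). D2 rests on 112 fibroblast-like and 90 endothelial-like cells, and each group on 1 library.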

Other observations

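Elastic fibre genes were also found outside the 3 classes described. In lymphatic endothelial-like cells (315 in Sham, 30 in D2 and 139 in D7), Eln was at 205 CPM in Sham, 144 CPM in D2 and 277 CPM in D7, and Fbln5 at 184, 183 and 428 CPM. In 30 adipocyte-like cells of D7, Efemp1 was at 940.3 CPM. Schwann-like cells (50 in Sham, 7 in D2 and 40 in D7) had 0 CPM of Fbln2 in Sham, 419 CPM in D2 and 546 CPM in D7. A cluster that could not be named, led by Bnc2 and Gpc6, held 64 cells of D7 and 87 of Sham. It had 1432.5 CPM of Eln in D7 and 1038 CPM in Sham, 1567.5 CPM of Fbn1 in D7 and 3414 CPM in Sham, and 202.5 CPM of Fbn2 in D7 and 0 CPM in Sham.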
